A study of Arabidopsis thaliana with 4 samples.

Results

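The contacts described here join the pericentromere of one Arabidopsis thaliana chromosome to the arms of another. They were measured by Hi-C, which crosslinks chromatin, cuts and religates it, and counts the ligation products that join each pair of genomic bins of 100 kb. A pair was a member when one bin lay in a pericentromere and the other in an arm of a different chromosome. Pairs of chromosome 1 with chromosome 2, the heterochromatic knob of chromosome 4 and the 5 outermost bins with signal at each chromosome end were left out. This gave 128196 pairs, 26.4% of the 484809 interchromosomal pairs kept and part of 681528 pairs of used bins in all. The remaining pairs were chosen by position, while the pair of chromosomes 1 and 2 was left out because of its contacts in leaf. The members were formed by 914 arm bins and by 197 pericentromere bins, with 30, 50, 49, 29 and 39 on chromosomes 1 to 5.

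The study compared endosperm, the seed tissue that nourishes the embryo, with leaf. Both came from ecotype Col-0 with genotype Col_wt x Col_wt, untreated, and the leaf plants were 4 weeks old, while the labels state none for the endosperm. There were 2 biological replicates of each tissue, 4 samples in all, and the deposited map of each tissue pools its 2 replicates. No spread between replicates could therefore be had and no test was made. Intervals are 95% intervals for counting error alone, and a difference outside them may still lie within the spread between plants. A contact map holds no expression, so the identity of the tissues could not be checked from markers.

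Pericentromeres are the repeat-rich, gene-poor stretches on either side of a centromere. In Arabidopsis leaf nuclei they are condensed into chromocenters, compact bodies of heterochromatin, from which the gene-rich arms loop out as euchromatin. Chromocenters tend to contact one another, and arms tend to contact other arms. Contacts between a pericentromere and a foreign arm join these 2 kinds of chromatin. Endosperm carries unequal numbers of maternal and paternal genomes, and its heterochromatin is known to be less compact than that of leaf.

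In TAIR10 coordinates the pericentromere ran from 12.9 to 16.9 Mb on chromosome 1, from 1.7 to 6.7 Mb on chromosome 2 and from 11.1 to 16.0 Mb on chromosome 3. On chromosome 4 it ran from 2.6 to 5.7 Mb and on chromosome 5 from 10.1 to 14.3 Mb. They are runs of low gene cover, set from a gene table. The arm toward the first base of a chromosome is called the north arm here. The north arms of chromosomes 2 and 4 are short, with 12 and 14 member bins, and the other 8 arms had between 70 and 127. Members held 2620858 contacts in leaf and 3933943 in endosperm, with a median of 14 and 20 per pair. A single pair in leaf and 0 pairs in endosperm had no contact. The leaf map joins chromosome 1 beyond 22.7 Mb to chromosome 2 beyond 1.5 Mb, and the segments before these points to each other, which is why chromosome 1 with 2 was left out. The 72 arm bins of chromosome 1 beyond 22.7 Mb and the 10 of chromosome 2 before 1.5 Mb, 82 in all, are called the joined segments here, and they stay among the members. Distances from the centromere and the end are those of TAIR10, and for these 82 bins they may not hold in leaf.

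Pericentromeres met foreign arms less often than an average interchromosomal pair in leaf, and nearly as often as average in endosperm. Contact is given as the mean balanced signal of the pairs over the mean of all interchromosomal pairs kept, so that 1 is the average. Leaf had 0.922 (0.921 to 0.923) and endosperm 0.982 (0.981 to 0.983), so endosperm was higher by 0.090 on the log2 scale (0.088 to 0.092), or 6.44%. Contacts between arms moved the other way, from 1.03 in leaf to 0.997 in endosperm. Contacts between pericentromeres went from 0.978 to 1.101. Since these classes share 1 average, an increase in one class lowers the others relative to it. The size of the difference depended on the scale. Against an expectation from the interchromosomal totals of both bins it was 0.0068, and on recovered counts without balancing it was 0.173.

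The difference had the same direction in every combination of a pericentromere with an arm. There are 36 such combinations, and 36 of 36 were higher in endosperm, by log2 0.054 to 0.191, with 36 counting intervals above 0. Over all 81 combinations of pericentromeres and arms between chromosomes, these 36 included, 66.7% were higher. These combinations are parts of the same 2 maps and not replicates. In leaf 0 of 36 reached the interchromosomal average. In endosperm 7 did, and they were the 7 combinations that involve the short north arms of chromosomes 2 and 4.

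The 29 combinations with long arms reached 0.958 to 0.995 in endosperm. The short arms reached 1.00 to 1.06, and 4 of their 7 counting intervals lay wholly above 1. The highest was pericentromere 4 with the north arm of chromosome 2, at 0.940 in leaf and 1.06 in endosperm. Next came pericentromere 2 with the north arm of chromosome 4, at 0.924 and 1.052. The smallest difference, log2 0.054 (0.033 to 0.076), was that of pericentromere 1 with the south arm of chromosome 3. Taken whole, the north arm of chromosome 2 went from 0.908 to 1.03 and that of chromosome 4 from 0.926 to 1.03. On chromosome 2, 10 of the 12 bins lie on the joined leaf segment, and whether the join bears on their value was not tested. The north arm of chromosome 4 lies on neither joined segment, and its difference was log2 0.148 (0.128 to 0.168).

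**Figure D1:**
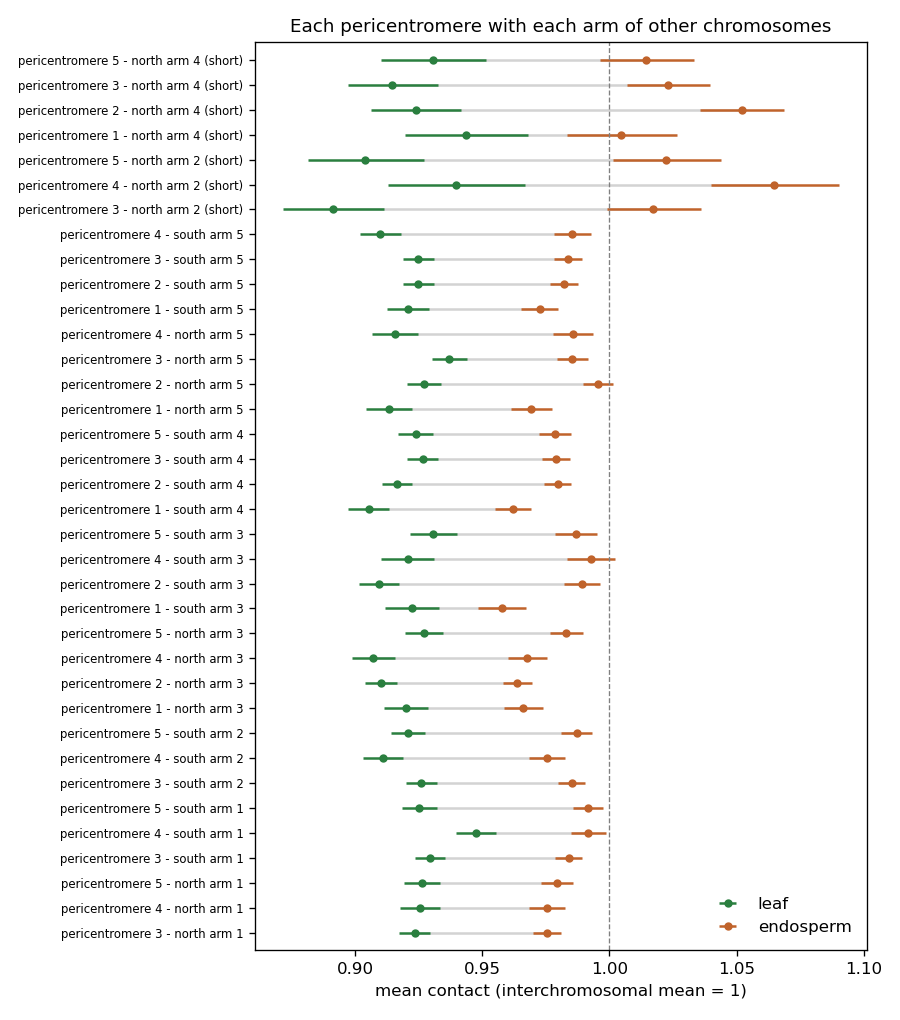
Mean contact (x axis, interchromosomal mean = 1) of each of the 36 combinations of a pericentromere with an arm of another chromosome (y axis) in leaf and endosperm, with 95% counting intervals as bars. Endosperm lies to the right of leaf in 36 of 36, and the 7 combinations with a short arm are the ones past 1 in endosperm.

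The means of the 5 pericentromeres lay close together, with a contact with foreign arms between 0.916 and 0.927 in leaf. In endosperm pericentromere 1 had 0.967 (0.964 to 0.971) and the other 4 had 0.983 to 0.986. These means cover unlike sets, since pericentromeres 1 and 2 were paired only with arms of chromosomes 3 to 5. Within 0.5 Mb of its midpoint, pericentromere 1 had used bins only at 14.4 and 15.0 Mb. The difference between tissues was log2 0.078 for pericentromere 1 and 0.086 to 0.098 for the others. Their profiles over single arm bins were less alike. Over the same arm bins, the 10 pairs of pericentromeres correlated at r = 0.053 to 0.160 in leaf and 0.064 to 0.221 in endosperm. Each value correlated was an arm bin's mean over a whole pericentromere, and how far counting error limits r was not tested. The side of the pericentromere made little difference. Bins north of the midpoint differed between tissues by 0.096 with north arms and by 0.096 with south arms, and bins south of it by 0.085 and 0.084.

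Arm bins close to their own centromere contacted foreign pericentromeres least in leaf and most in endosperm. Distance was taken from the midpoint of the bin's own pericentromere. In leaf, contact was 0.905 (0.902 to 0.908) for the 170 bins under 4 Mb. It was 0.929 for the 160 bins at 4 to 6 Mb, 0.930 for the 155 bins at 6 to 8 Mb, 0.930 for the 154 bins at 8 to 10 Mb and 0.920 for the 275 bins at 10 Mb or more. Leaf contact was thus lowest beside the centromere and flat over most of the arm. In endosperm the same classes had 0.999 (0.996 to 1.00), 0.986, 0.981, 0.979 and 0.970, a fall from the centromere outward. The difference between tissues was log2 0.142 under 4 Mb and between 0.074 and 0.085 in the other 4 classes.

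The ratio of bins under 4 Mb to bins at 8 Mb or more had opposite signs in the 2 tissues. It was log2 -0.029 in leaf (-0.035 to -0.023) and 0.037 in endosperm (0.032 to 0.042). The difference of 0.066 (0.059 to 0.074) was not tested across replicates. Of the 8 arms that have bins in both classes, leaf had the near class below the far class in 7. The exception, the south arm of chromosome 2 (0.923 near, 0.921 far), rests on 1 strong pair of the bin at 7.1 Mb, described further on. Without the strong pairs its near class had 0.907, and the near class was lower in 8 of 8 arms. Endosperm had the near class above the far class in 8 of 8. The near class also had the largest difference between tissues of any distance class in 8 of 8 arms, at 0.117 to 0.161, against 0.058 to 0.083 at 8 Mb or more. Without the joined leaf segments the difference between tissues was 0.139 under 4 Mb and 0.075 at 8 Mb or more. The sign of each tissue's own ratio depended on the scale. Against the expectation from both totals it was positive in both, at 0.055 in leaf and 0.070 in endosperm, and on counts without balancing it was negative in both, at -0.109 and -0.083. The contrast between tissues kept its direction in each, at 0.015 and 0.026.

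In steps of 0.5 Mb the difference was concentrated at the edge of the pericentromere. The 45 bins within 0.5 Mb of the edge of their own pericentromere had a leaf contact of 0.891 (0.885 to 0.897) and an endosperm contact of 1.01 (1.01 to 1.02), which differ by log2 0.182 (0.169 to 0.195). All 45 were higher in endosperm. The difference was 0.142 at 0.5 to 1 Mb, 0.121 at 1 to 1.5 Mb, 0.111 at 1.5 to 2 Mb and 0.094 at 2 to 2.5 Mb, and at 3 to 3.5 Mb it was 0.071. A second high value at 1.5 to 2 Mb, 1.01 in endosperm and 0.936 in leaf, rests in part on the bin at 8.1 Mb of chromosome 5 and its strong pairs. Without strong pairs this step had 1.001 and 0.921, and leaf then had 0.922 in the next step.

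**Figure D2:**
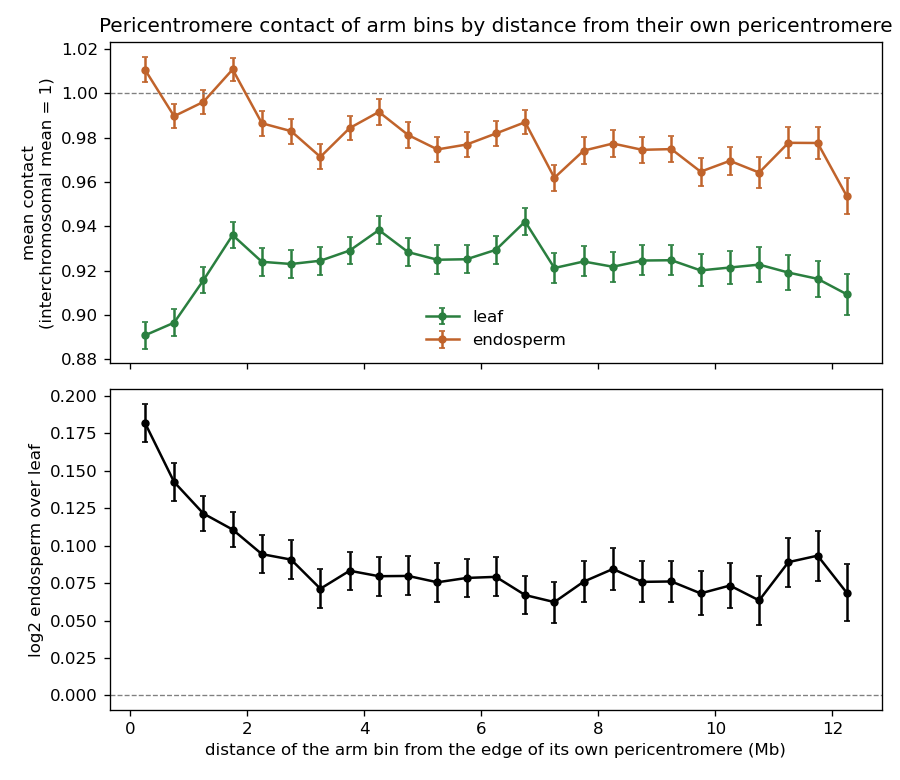
Upper panel, mean contact of arm bins with pericentromeres of other chromosomes (interchromosomal mean = 1) in leaf and endosperm, and lower panel, log2 of endosperm over leaf, both against distance from the edge of the bin's own pericentromere in steps of 0.5 Mb, with 95% counting intervals as bars. The difference is 0.182 in the step beside the edge and 0.071 at 3 to 3.5 Mb.

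An arm bin's preference was defined as its contact with foreign pericentromeres over its contact with the arms of the same chromosomes. The 914 arm bins had a median preference of 0.897 in leaf. In endosperm the median was 0.985, higher by log2 0.135 (0.132 to 0.139). This too depended on the scale, at 0.012 against the expectation from both totals and 0.240 on counts without balancing. It exceeded 1 in 8 arm bins in leaf and in 324 in endosperm. Preference was higher in endosperm in 896 of 914 arm bins, or 98.0%. Over every used bin, pericentromere, end and knob bins included, it was higher in 95.9%, so the direction is not particular to arm bins.

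By this measure both tissues favoured the centromere end of the arm. From the class under 4 Mb to that at 10 Mb or more, median preference went from 0.916 through 0.908, 0.901 and 0.895 to 0.871 in leaf. In endosperm it went from 1.01 through 0.999, 0.995 and 0.979 to 0.952. The near class had the higher median in 8 of 8 arms in each tissue, by log2 0.020 to 0.080 in leaf and 0.051 to 0.133 in endosperm. Contact with foreign arms moved along the arm too. It was 0.988 under 4 Mb and 1.06 at 10 Mb or more in leaf, and 0.983 and 1.02 in endosperm. Between the same classes the interchromosomal share of a bin's signal went in leaf from 67.4% to 70.5%, and in endosperm from 64.9% to 65.8%, and its part in the gradients was not tested.

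**Figure D3:**
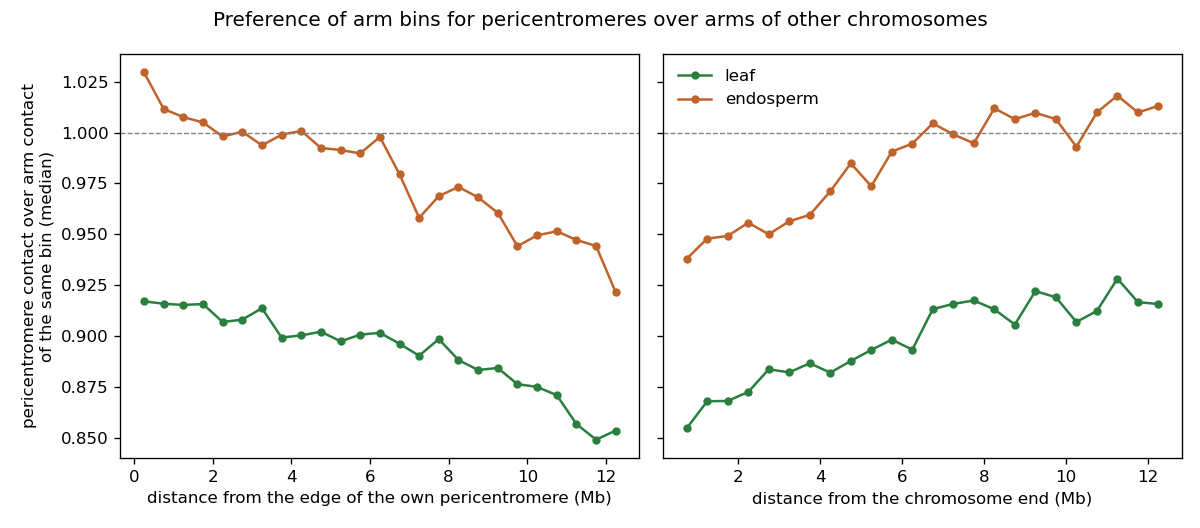
Median preference of arm bins (contact with pericentromeres over contact with arms of the same other chromosomes, y axis) in leaf and endosperm, against distance from the edge of the own pericentromere (left) and from the chromosome end (right), both in Mb. Preference falls away from the pericentromere and climbs away from the chromosome end in both tissues, and endosperm lies above leaf throughout.

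Distance from the chromosome end ordered contact less than distance from the centromere, while preference was ordered by both. In leaf, contact was 0.916 for the 142 bins under 2 Mb, and 0.926, 0.925, 0.925 and 0.920 at 2 to 4, 4 to 6, 6 to 8 and 8 Mb or more. In endosperm it was 0.977, 0.973, 0.976, 0.983 and 0.991. The ratio of bins under 2 Mb to bins at 6 Mb or more was log2 -0.010 in leaf and -0.016 in endosperm, and the interval of their difference, -0.014 to 0.001, included 0. The sign of each tissue's own ratio depended on the setting. On counts without balancing it was positive, at 0.006 in leaf and 0.018 in endosperm. Without chromosomes 1 and 2 it was 0.006 in leaf and -0.019 in endosperm. Against the expectation from both totals it was negative, at -0.080 and -0.085. Without the strong pairs described further on it was -0.004 in leaf and -0.012 in endosperm. Near-end bins were below far bins in 7 of 8 long arms in leaf, the south arm of chromosome 3 being the exception, and in 8 of 8 in endosperm. This count by arm includes the strong pairs and was not made without them. Preference was lowest near the ends, at 0.865 in leaf and 0.947 in endosperm under 2 Mb, against 0.916 and 1.01 at 8 Mb or more. The log2 ratio of median preference under 2 Mb to that at 6 Mb or more was -0.079 in leaf and -0.090 in endosperm. The ratio of median preference by distance from the centromere, under 4 Mb to 8 Mb or more, was 0.054 and 0.080. The limits of these 2 ratios differ, so their sizes cannot be ranked.

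The 2 distances oppose each other on a long arm, so they were crossed. The 26 bins under 4 Mb from both the centromere and the end, which lie on the short arms, went from 0.919 in leaf to 1.03 in endosperm. Of these, 10 lie on the joined segment of chromosome 2, where TAIR10 distances may not hold in leaf, and no crossing without them was made. The 14 on the north arm of chromosome 4 lie on neither joined segment and differed by log2 0.148. The 144 bins under 4 Mb from the centromere but further from the end went from 0.903 to 0.994. The 279 bins near the end but 4 Mb or more from the centromere went from 0.922 to 0.970, and the 465 bins far from both from 0.929 to 0.982. The log2 difference was 0.161 and 0.138 in the groups near the centromere and 0.074 and 0.081 in the others. Nearness to the centromere thus went with a large difference at either distance from the end.

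On the pericentromere side the difference was largest at the middle. Bins within 0.5 Mb of the midpoint of their pericentromere had 0.924 in leaf against 1.01 in endosperm, higher by log2 0.122 (0.116 to 0.128). It was 0.106 at 0.5 to 1 Mb, 0.088 at 1 to 1.5 Mb, 0.064 at 1.5 to 2 Mb and 0.043 at 2 to 3 Mb. Depth within the pericentromere and position on the arm were also combined. The inner 1 Mb with arm bins under 4 Mb went from 0.909 to 1.02, a difference of 0.172 (0.163 to 0.182). The outer pericentromere with arm bins at 8 Mb or more went from 0.912 to 0.953, a difference of 0.064 (0.059 to 0.070). The mixed groups lay between, at 0.089 for the inner part with far bins and 0.117 for the outer part with near bins.

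Single pericentromere bins were higher in endosperm in 191 of 197 cases. Over every used bin, taken with the pericentromeres and with the arms of other chromosomes, 59.5% were higher. That share includes the member values themselves. Arm contact exceeded 1 in 13 of the 197 pericentromere bins in leaf and in 49 in endosperm. The highest was the bin at 14.1 to 14.2 Mb of chromosome 3, with 1.14 in leaf and 1.25 in endosperm. In leaf it was followed by the bins at 13.5 Mb of chromosome 3, with 1.11, and at 3.4 Mb of chromosome 2, with 1.11. In endosperm it was followed by those at 14.2 Mb and 13.5 Mb of chromosome 3, with 1.22 and 1.19. These bins had raw counts far above the median bin, by 6.79 times in leaf and 12.7 times in endosperm for the first and by 30.3 and 22.7 times for the bin at 13.5 Mb. Of the 11 pericentromere bins with raw counts over 1.5 times the median, 10 were above 1 in leaf and 11 in endosperm. Of the 186 others, 3 were above 1 in leaf and 38 in endosperm. The part of the raw count in this was not tested. The lowest in leaf was the bin at 2.6 Mb of chromosome 2, with 0.792 in leaf and 0.927 in endosperm. In leaf the bin at 12.2 Mb of chromosome 3 and the bin at 4.3 Mb of chromosome 2 followed, at 0.826 and 0.828. The lowest in endosperm were those at 5.5 Mb of chromosome 4 and at 12.1 and 12.2 Mb of chromosome 3, at 0.907, 0.908 and 0.912.

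**Figure D4:**
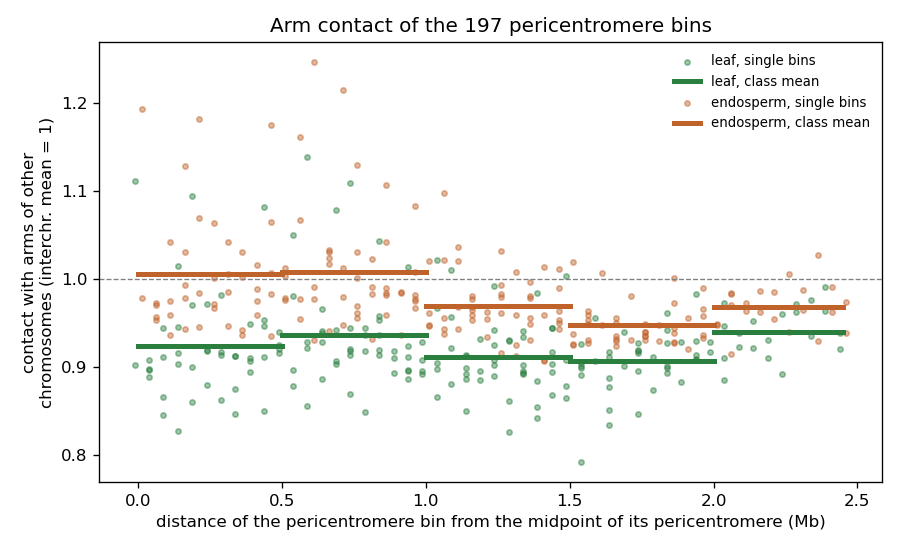
Mean contact with arms of other chromosomes (y axis, interchromosomal mean = 1) of the 197 pericentromere bins in leaf and endosperm, against distance from the midpoint of their pericentromere in Mb, with class means as horizontal bars. Single bins reach 1.25 in endosperm and 1.14 in leaf, and the gap between the class means narrows from log2 0.122 at the midpoint to 0.043 beyond 2 Mb.

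Single arm bins followed the same direction. Contact with foreign pericentromeres was higher in endosperm in 848 of 914 arm bins, or 92.8%, against the same 59.5%. The counting interval of the difference lay above 0 in 512 arm bins and below 0 in 5, and this count was not made over every used bin. Those below 0 include 21.1 Mb of chromosome 1 and 3.2 and 8.1 Mb of chromosome 5, which hold strong pairs described further on. Without these pairs the 3 bins were higher in endosperm, by log2 0.055, 0.180 and 0.194. A difference past 1.1 fold was seen in 188 arm bins upward, or 20.6%, against a background of 16.4%, and in 0 downward, against 0.342%. These backgrounds include the arm bins themselves. The count hung on the scale. Against the expectation from both totals it was 2 upward and 6 downward, and on counts without balancing 645 upward. The share past 1.1 fold is thus near the background over all arm bins, but it was 61 of 90 within 1 Mb of the pericentromere edge. All 90 of those bins were higher in endosperm. Of the 50 arm bins with the largest differences, 68% lay under 4 Mb from the centromere, where 18.6% of arm bins lie.

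The largest difference was in the bin at 6.9 to 7.0 Mb of chromosome 2, beside the pericentromere, with 0.875 in leaf and 1.09 in endosperm (log2 0.32). The bins at 1.3 Mb of chromosome 2 and at 14.8 and 14.6 Mb of chromosome 5, each within 0.55 Mb of an edge, differed by 0.27. That of chromosome 2 lies on a joined segment. The bin at 24.2 to 24.3 Mb of chromosome 1 differed by 0.29 but lies 7.35 Mb from the edge. Its raw count was 1.07 times the median in leaf and 2.06 times in endosperm, and it lies on a joined segment. Its contact with foreign arms was higher in endosperm too, at 1.15 against 1.01 in leaf. Its preference differed by log2 0.108, against 0.135 between the medians of all arm bins. The part of the raw count and of the joined segments in these values was not tested.

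The lowest arm bin in leaf was at 14.5 Mb of chromosome 5, with 0.793 (0.921 in endosperm). It was followed, at 0.837 to 0.842, by 2 more bins of chromosome 5 (14.8 and 15.0 Mb), 1 of chromosome 2 (6.8 Mb) and 1 of chromosome 4 (18.0 Mb). Of these 5, 4 lie within 1 Mb of an edge. The 5 lowest in endosperm had 0.876 to 0.897 and lay elsewhere. They were 2 bins of chromosome 1 (29.8 and 0.8 Mb) and 1 each of chromosomes 3 (4.4 Mb), 2 (19.0 Mb) and 5 (4.4 Mb). Each lies over 5 Mb from its pericentromere. Among these 5 per tissue, the lowest bins thus sat mostly beside pericentromeres in leaf and out on the arms in endosperm. In leaf, the 4 beside an edge had a contact with foreign arms of only 0.906 to 0.942. Their preference was 0.875 to 0.893, against a median of 0.897 over all arm bins. The bin of chromosome 4 had a preference of 0.782.

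**Figure D5:**
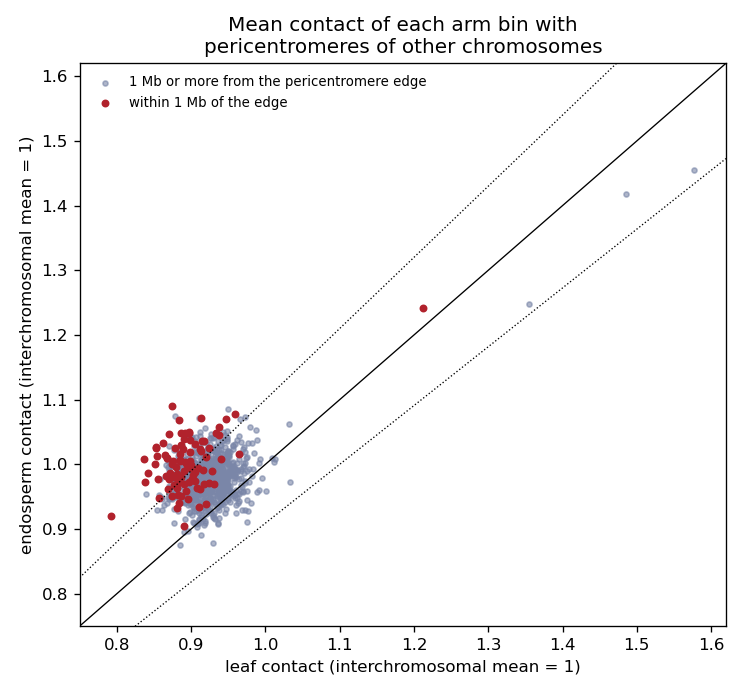
Mean contact of each of the 914 arm bins with pericentromeres of other chromosomes in leaf (x axis) and endosperm (y axis), both with the interchromosomal mean as 1. The solid line marks equal values and the dotted lines a fold of 1.1, and 61 of the 90 bins within 1 Mb of the pericentromere edge lie above the upper dotted line.

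A few single pairs stood far above the rest. Across the members, the middle 50% of pairs spanned 0.733 to 1.09 for leaf and 0.768 to 1.17 for endosperm, yet 10 pairs exceeded 5 times the interchromosomal mean in at least 1 tissue and 7 in both. Over all 484809 interchromosomal pairs kept, 76 did, or 0.0157%. The 10 pairs involved 9 arm bins and 8 pericentromere bins, and 9 of 10 had the higher value in leaf.

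The strongest joined 5.2 to 5.3 Mb of chromosome 4 to 21.1 to 21.2 Mb of chromosome 1, at 76.4 in leaf and 58.1 in endosperm, from 1499 and 1411 contacts. Its neighbouring pairs had medians of 1.04 and 0.791. The pair of 3.1 Mb of chromosome 2 with 8.1 Mb of chromosome 5 had 57.1 and 50.1, from 975 and 1045 contacts. The same arm bin met 3.4 Mb of chromosome 2 at 39.3 and 15.6. The bin at 14.1 Mb of chromosome 3 met 3.2 Mb of chromosome 5 at 65.8 and 29.2, and 7.1 Mb of chromosome 2 at 28.9 and 14.2. For that bin the highest neighbouring pair was also raised, at 4.31 and 3.26 in leaf. The pair with the higher value in endosperm joined 6.5 Mb of chromosome 2 to 17.3 Mb of chromosome 3, at 4.32 in leaf and 8.54 in endosperm. Apart from the bin at 14.1 Mb of chromosome 3, these contacts were confined to 1 pair of bins: no neighbouring pair reached 2.

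These pairs set the top of the arm bin list. The 4 highest arm bins in both tissues were 21.1 Mb of chromosome 1 (1.58 in leaf, 1.46 in endosperm), 8.1 Mb of chromosome 5 (1.49 and 1.42), 3.2 Mb of chromosome 5 (1.36 and 1.25) and 7.1 Mb of chromosome 2 (1.21 and 1.24). Without their strong pairs they had 0.932, 0.887, 0.945 and 0.973 in leaf, and 0.967, 1.01, 1.07 and 1.13 in endosperm. The bin at 3.2 Mb of chromosome 5 and the bin at 21.1 Mb of chromosome 1 also showed the largest falls from leaf to endosperm, at log2 -0.12 each. Without the strong pairs the direction turned, and both were higher in endosperm, by 0.18 and 0.055. The next falls, at 7.8 Mb of chromosome 3 and at 23.8 and 0.8 Mb of chromosome 1, were -0.100, -0.085 and -0.080. Across the 914 arm bins the leaf and endosperm values correlated at r = 0.52, and at 0.12 without the strong pairs. The bins share a library and a depth within each tissue, so this is a description.

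Gene cover, the percentage of a bin covered by genes of the TAIR10.1 gene table, ordered the arm bins in endosperm more than in leaf, with the strong pairs left out. The arm bins were ranked by gene cover and cut into 4 groups of like size. From the lowest to the highest group, with medians of 48.6% and 76.5%, leaf contact went from 0.909 to 0.921 and endosperm contact from 0.996 to 0.966. The log2 difference between tissues was 0.131, 0.092, 0.075 and 0.069 over the 4 groups. Gene cover is low beside the pericentromeres, whose limits were set from it. At 4 Mb or more from the centromere the groups still ran 0.105, 0.086, 0.073 and 0.068, with non-overlapping intervals for the lowest and the highest (0.098 to 0.113 and 0.063 to 0.073).

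Of 54 genes in 5 lists, 50 lay in member arm bins. A bin holds many genes, and several of these genes share one. Of all arm bins 92.8% were higher in endosperm and 20.6% were past 1.1 fold, with a median log2 difference of 0.091. For the 11 bins of photosynthesis genes it was 0.146, with 10 higher in endosperm (90.9%) and 6 past 1.1 fold (54.5%). Of the 11, 6 lie under 4 Mb from the centromere, where the median of all 170 arm bins was 0.144. Those past the fold lie at 2.3 to 2.9 Mb or at 10.15 to 12.85 Mb from it. The other bins under 4 Mb differed by log2 -0.024 to 0.092, and the part of position was not tested. The bin of LHCB5, a light-harvesting antenna protein, lies 2.3 Mb from the centromere, with 0.885 in leaf and 1.01 in endosperm. That of RBCS1A, the small subunit of Rubisco, lies 10.15 Mb away on the joined segment, with 0.876 and 1.02. The 8 bins of paternally expressed imprinted genes had a median of 0.108, with 7 higher (87.5%) and 3 past the fold (37.5%), and 3 of the 8 lie under 4 Mb. The bin of NRPD1, the largest subunit of RNA polymerase IV, lies 8.45 Mb from the centromere on the joined segment, with 0.926 and 1.03. PHE1, a type I MADS-box gene, lies with PHE2 and AGL23 in the bin at 24.2 Mb of chromosome 1 described above.

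The 5 bins of maternally expressed imprinted genes had a median of 0.071, with 5 of 5 higher and 0 past the fold. MEA, a Polycomb methyltransferase of the seed, had 0.947 and 0.985. The 13 bins of MADS-box and other endosperm regulators had a median of 0.049, with 11 higher (84.6%) and 2 past the fold (15.4%). AGL62, which holds back endosperm cellularisation, had 0.949 and 0.976. The 7 bins of seed storage genes had a median of 0.103, with 6 higher (85.7%) and 1 past the fold (14.3%). The bin of CRA1, a cruciferin storage protein, had 0.950 and 1.02. A single bin's difference has a counting interval of about 0.081 on either side, so most of these bins cannot be told from the median of all arm bins.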

How the data were processed

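The deposited values are balanced Hi-C signal (iterative correction, per the file names) at 100 and 200 kb bins, 1 map per tissue pooled by the authors from 2 replicates. The submitters' processing notes name HiC-Pro 2.9.0, Bowtie2 and the build TAIR10. For the enzyme, read filters and balancing settings, the sources used here state nothing. Balancing equalises each bin's total signal, so differences in coverage, copy number included, are removed from that total only. It does not equalise how the total divides between contacts within and between chromosomes.

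Whole counts were recovered from the 100 kb signal as signal divided by 1 factor per bin. Every pair was whole within 0.01, and at most 55.1% of a bin's counts were even, so no bin was left with doubled counts. Leaf had 18557893 contacts in all and endosperm 25033672. The recovery and the class means were tested on maps simulated from the leaf map with its balancing factors kept. These maps were not balanced anew after a change was added, so the test does not cover the effect of balancing. An earlier form of the recovery doubled most counts of 1 simulated map and was corrected, which left the counts of the deposited maps unchanged.

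Of 1193 bins, 1168 with values for at least 50% of other bins in both tissues were used. Intervals propagate Poisson error (1.96 SDs) with the factors kept. They cover counting error only. Values were computed in Python 3.11.15 with numpy 2.4.6 and pandas 2.3.3. Regions named are every combination, the 5 highest and lowest arm bins per tissue, the 5 largest differences each way, the 3 highest and lowest pericentromere bins per tissue, and members of 5 gene lists placed by a TAIR10.1 gene table. The members and lists were chosen with earlier results of these data known. Strong pairs were singled out after their values were seen. No sequences were used.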

Additional observations from a re-analysis of the deposited data

Results flagged for a closer look

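The contrast between arm bins near the centromere and far from it had opposite signs in the 2 tissues. Contact with foreign pericentromeres in bins under 4 Mb over that in bins at 8 Mb or more was log2 -0.029 in leaf and 0.037 in endosperm. With 1 pooled map per tissue, the difference between tissues was not tested across replicates. The sign in leaf was positive against the expectation from both totals, and the sign in endosperm was negative on counts without balancing.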

How the results depend on the processing

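The overall difference (log2 0.090) kept its direction under 14 alternatives, at 0.0068 to 0.173. It was 0.173 on counts without balancing, 0.108 on such counts without bins of outlying raw count, 0.104 with chromosome 1 and 2 pairs in the reference, 0.0068 against both totals, 0.034 against all pairs, 0.134 against pairs of arms, 0.099 without 5 bins on each side of the pericentromere edge and 0.093 at 200 kb. In the same order of settings where they moved, the centromere gradient (0.066) was 0.026 and 0.023 on counts without balancing, 0.015 against both totals and 0.058 without edge bins, and it was 0.075 without chromosomes 1 and 2. The end gradient (-0.0065) reversed to 0.011 and 0.014 on counts without balancing and was -0.025 without chromosomes 1 and 2. The preference difference (0.135) was 0.240 and 0.157 on counts without balancing, 0.012 against both totals and 0.150 without edge bins. Arm bins past 1.1 fold (188) numbered 645 and 308 on counts without balancing, 2 (with 6 downward) against both totals, 52 against all pairs, 440 against pairs of arms, and 70 of 445 larger bins at 200 kb. They numbered 581 past a difference of 5% and 7 past a fold of 1.2. The causes were not tested, except that a lower or higher fold and fewer bins change a count by construction. The alternatives without strong pairs, and without balancing together with the filter on raw count, were chosen after seeing the data. No paired analysis was possible because each map pools its replicates, and for the same reason no replicate could be left out. Depth limits single arm bins to about 0.081 on either side of a log2 difference.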
